A study of Mus musculus with 6 samples.

Results

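Pde8b and the other cyclic nucleotide phosphodiesterases of eEnd2 cells, a mouse embryonic endothelial cell line, are described here through 10 genes of the 23420 gene symbols in the count table. The genes Pde2a, Pde3a, Pde3b, Pde4a, Pde4b, Pde4d, Pde5a, Pde7a, Pde8a and Pde8b were chosen by symbol, after their counts in the comparison of β1-K794Q-GFP with β1-WT-GFP cells had been seen. Their values in that comparison are therefore given as a description, without a p for any of them, and counts of them past a threshold are no evidence. The study asked how acetylation of integrin β1 at a lysine of its cytoplasmic tail, K794, bears on endothelial transcription. Cells of both groups carried a stably transfected human integrin β1A with eGFP in its extracellular part, after K107, driven by a short human actin promoter joined to a matrix attachment region of chicken lysozyme. The chimera was either wildtype (β1-WT-GFP, labelled HUMAN_B1A-WT) or carried glutamine in place of the lysine as an acetyl-mimetic (β1-K794Q-GFP, labelled HUMAN_B1A-K794Q). Both groups kept the mouse Itgb1 gene of the line, were sorted for GFP, were untreated, and were lysed when confluent. Each group had 3 cultures, A, B and C, which are separate cultures of sorted populations and not separate clones or animals. The labels name GFPlow and GFPhigh populations without saying which of them a culture came from.

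Cyclic nucleotide phosphodiesterases hydrolyse the second messengers cAMP and cGMP and so end their signals. The PDE4, PDE7 and PDE8 families hydrolyse cAMP, PDE5 hydrolyses cGMP, and PDE2 and PDE3 take both. In endothelium cAMP strengthens cell-cell junctions through protein kinase A and the Rap1 exchange factors called EPAC, and PDE2, PDE3 and PDE4 enzymes are the ones best known there. PDE3 is inhibited by cGMP and PDE2 is stimulated by it, while PDE8 enzymes have a very high affinity for cAMP. Pde8b is best known from the adrenal, the thyroid and the brain.

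Pde8b was not counted in any β1-WT-GFP culture and was counted in every β1-K794Q-GFP culture, and Pde3b followed the same split with a few counts in β1-WT-GFP cells. To show the DNA next to the gene that went from no count to counts, the bases upstream of its most upstream RefSeq start are printed beside those of Pde8a, its closest relative, which was counted in all 6 cultures. The pieces lie at chr13:95250402-95250586 on the minus strand for Pde8b and at chr7:81213015-81213264 on the plus strand for Pde8a (RefSeq, GRCm38.p6), both outside the annotated transcripts. Capitals mark TGACG, the core of the cAMP response element (CRE), searched on both strands.
Pde8b: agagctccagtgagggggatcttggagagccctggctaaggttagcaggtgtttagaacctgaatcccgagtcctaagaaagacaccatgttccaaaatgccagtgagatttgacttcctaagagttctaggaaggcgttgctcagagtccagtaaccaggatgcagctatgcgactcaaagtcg
Pde8a: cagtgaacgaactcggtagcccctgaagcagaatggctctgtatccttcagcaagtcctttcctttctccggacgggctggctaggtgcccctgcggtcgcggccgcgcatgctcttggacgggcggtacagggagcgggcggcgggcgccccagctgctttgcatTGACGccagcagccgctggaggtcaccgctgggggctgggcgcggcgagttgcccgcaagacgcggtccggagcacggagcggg
The Pde8b piece is 185 bases long, with 49.7% G or C, 4 CpG dinucleotides and 0 matches to this core. The Pde8a piece is 250 bases long, with 68.8% G or C, 27 CpG dinucleotides and 1 match at its base 167. In the whole RefSeq windows of 300 bases around annotated starts, the full CRE, TGACGTCA, which contains the core, was found in 588 of 32851 windows (1.79%) and in 0 of the 20 windows of the chosen genes. The core was found in 6837 of all windows (20.8%) and in 5 of the 20, which belonged to Pde2a, Pde4a, Pde4b, Pde8a and Pde8b. The match of Pde8b did not lie within the piece printed above. The table of windows covers 7 of the 10 genes and has none for Pde3a, Pde3b and Pde7a. A match describes letters and no binding was measured.

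Pde8b (chr13, 95024454 to 95250336, minus strand, GRCm38) encodes a cAMP-specific phosphodiesterase. It had 0 counts in all 3 β1-WT-GFP cultures against 195 in culture A, 14 in culture B and 54 in culture C of β1-K794Q-GFP cells. Counts normalized by TMM to 1000000 counts per library (CPM) were 18.8, 1.38 and 4.64 in these cultures, with exact 95% Poisson intervals of 16.2 to 21.6, 0.755 to 2.32 and 3.49 to 6.06 that cover counting error only. The β1-K794Q-GFP cultures thus differed among themselves by far more than counting error, with culture A highest and culture B lowest. Their mean was 8.27 ± 9.24 CPM (SD, n = 3). A count of 0 allows up to 3 counts, which is a mean of 0.257 CPM over the β1-WT-GFP libraries. The measured β1-K794Q-GFP mean was 32.2 times this floor. This is a bound for the β1-WT-GFP zeros only and leaves out the spread and counting error of the β1-K794Q-GFP cultures. Culture by culture the bounds were 73.0, 5.37 and 18.1, and the bound over the group was at least 11.8 without β1-K794Q-GFP culture A and at least 45.8 without culture B. In bulk RNA, more cells with the transcript and more transcript per cell cannot be told apart.

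Pde3b (chr7, 114415281 to 114539251) encodes the cGMP-inhibited phosphodiesterase known for lowering cAMP in fat cells after insulin. β1-WT-GFP cells gave 1 count in culture A, 1 in B and 4 in C, and β1-K794Q-GFP cells gave 179 in A, 35 in B and 107 in C. On the CPM scale β1-WT-GFP cells were at 0.155 ± 0.107 and β1-K794Q-GFP cells at 9.96 ± 6.92 (SD, n = 3 each). The order of the β1-K794Q-GFP cultures was that of Pde8b, with A highest and B lowest, and no culture of one group reached the other. The ratio of the summed counts, each scaled to its libraries, was 59.6 (exact 95% interval 27.1 to 164, counting error only). The fitted log2 fold change of 5.84 (SE 0.84) lay between 5.20 and 6.58 when each culture was left out in turn. Pde3a, the other PDE3 gene, had 0 counts in all 6 cultures, which allows up to 0.209 to 0.30 CPM depending on the library.

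Of the 10 genes, 8 passed the filter on low counts. Past both thresholds used for the series, a 2-fold difference or more with an unadjusted p no higher than 0.05, lay 2 of these 8, Pde8b and Pde3b, both higher in β1-K794Q-GFP cells. Over the 11608 genes tested 5.19% were past both thresholds, 3.48% higher and 1.71% lower. The same 2 genes were the ones whose groups did not overlap, against 16.6% of all genes tested. At a Benjamini-Hochberg adjusted p of at most 0.05 in edgeR's quasi-likelihood test stood 0 of the 8 and 0.181% of all genes, while DESeq2 placed 2 there, with 4.15% of the 11487 genes it gave an adjusted p. An unadjusted p of at most 0.05 in edgeR was reached by 3, and by 10.2% of all genes tested. Since the genes were picked with this comparison known, and Pde8b and Pde3b passed the filter only through the group in which they are high, these counts say nothing about the family. The other 6 tested had log2 fold changes from -0.68 to 0.74.

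**Figure D1:**
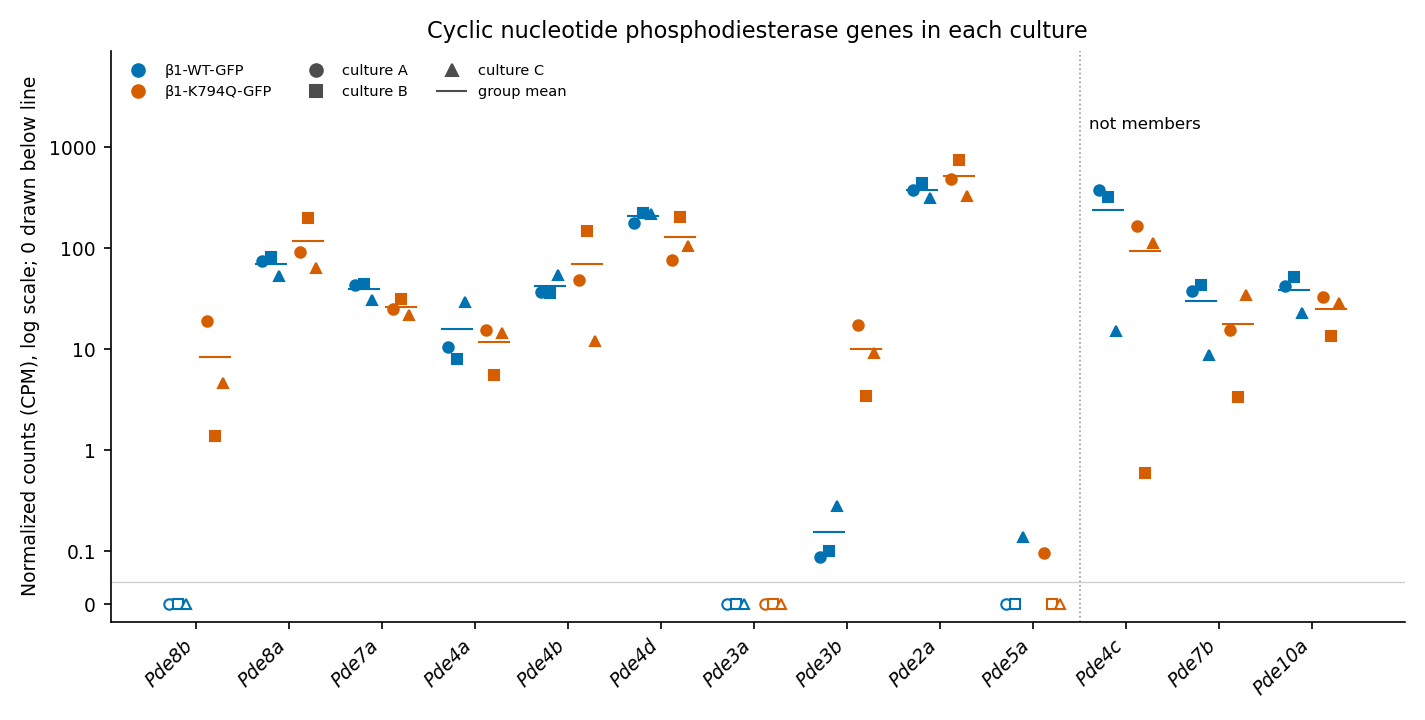
Normalized counts (CPM, log axis, 0 drawn below the line) of the 10 chosen phosphodiesterase genes and of 3 others that passed the filter, in each of the 6 cultures. Blue marks β1-WT-GFP, orange β1-K794Q-GFP, the shape the culture and the line the group mean; in Pde8b and Pde3b the groups lie apart, and in the others tested they overlap.

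Among the other enzymes specific for cAMP, Pde8a (chr7, 81213596 to 81334533) is the closest relative of Pde8b. With cultures given in the order A, B, C here and in what follows, it stood at 75.4, 81.6 and 53.6 CPM in β1-WT-GFP and at 90.8, 197 and 64.2 CPM in β1-K794Q-GFP cells. The groups overlapped, and β1-K794Q-GFP culture B alone lay far above the other 5. The log2 fold change was 0.74 (SE 0.44), 0.15 without β1-K794Q-GFP culture B and 1.03, past both thresholds, without β1-K794Q-GFP culture C. Pde7a (chr3, 19223108 to 19311322), a rolipram-insensitive enzyme known from T cells, went the other way, with 43.2, 44.4 and 30.5 CPM in β1-WT-GFP and 25, 31.6 and 21.6 CPM in β1-K794Q-GFP cultures. Its groups overlapped by a narrow margin, β1-WT-GFP culture C at 30.5 and β1-K794Q-GFP culture B at 31.6 CPM, and its log2 fold change of -0.59 (SE 0.24) stayed between -0.75 and -0.47 when each culture was left out in turn.

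The PDE4 genes encode the rolipram-sensitive enzymes that several anchoring proteins hold near protein kinase A. Pde4d (chr13, 108449948 to 109953461) was the most abundant of the PDE4 genes on the list, at 177, 225 and 218 CPM in β1-WT-GFP and 76.8, 204 and 105 CPM in β1-K794Q-GFP cultures. Culture B of β1-K794Q-GFP lay within the β1-WT-GFP range and cultures A and C below it. The log2 fold change was -0.68 (SE 0.38), and -1.18, past both thresholds, without that culture. Pde4b varied more among the β1-K794Q-GFP cultures than between the groups, at 36.9, 36 and 53.9 CPM in β1-WT-GFP and 47.9, 147 and 12 CPM in β1-K794Q-GFP cultures. Its log2 fold change was 0.70 (SE 0.80) and turned to -0.50 without β1-K794Q-GFP culture B. Pde4a stood at 10.6, 8.0 and 29.4 CPM in β1-WT-GFP and 15.6, 5.53 and 14.5 CPM in β1-K794Q-GFP cultures, with the highest and the second lowest value both in β1-WT-GFP cultures. The log2 fold change of -0.43 (SE 0.62) turned to 0.37 without β1-WT-GFP culture C. The direction of Pde4a and Pde4b thus rested on a single culture each.

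Pde2a (chr7, 101421691 to 101512827), the cGMP-stimulated enzyme that hydrolyses both nucleotides, had the highest mean CPM of the phosphodiesterases in both groups. Pde4c, at 379 CPM in β1-WT-GFP culture A, came close to it there. Pde2a stood at 380.4, 444 and 314 CPM in β1-WT-GFP and 480.1, 754 and 326 CPM in β1-K794Q-GFP cultures. Culture B of β1-K794Q-GFP was thus highest, while culture C lay within the β1-WT-GFP range. The log2 fold change was 0.45 (SE 0.35), and 0.09 without β1-K794Q-GFP culture B. Pde5a, the cGMP-specific target of sildenafil, had 2 counts in β1-WT-GFP culture C, 1 count in β1-K794Q-GFP culture A and none elsewhere, and was not tested.

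**Figure D2:**
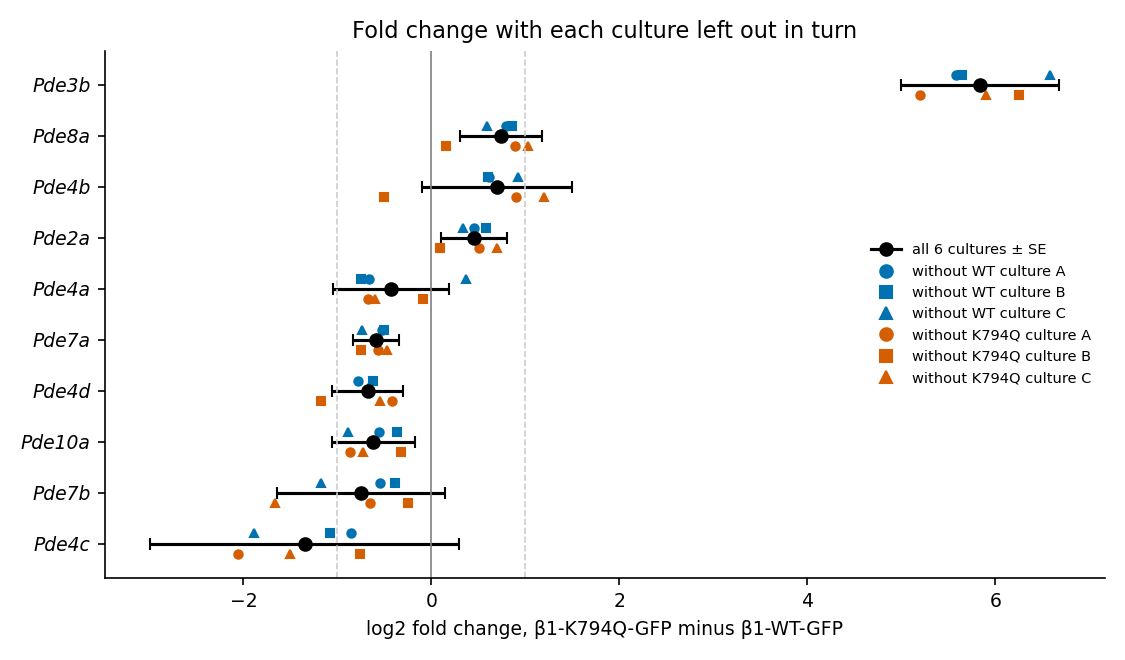
Log2 fold change (β1-K794Q-GFP minus β1-WT-GFP) of the phosphodiesterase genes tested other than Pde8b, whose fold is a bound. Black points with bars give all 6 cultures ± SE, coloured marks the value without 1 culture and dashed lines a 2-fold change; Pde3b stays beyond 5.20 throughout, while Pde4a and Pde4b cross 0.

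The family has 11 further catalytic genes in the table, of which 3 passed the filter and 0 were past both thresholds in edgeR or in DESeq2, where 5.99% of all genes were, with 0 at an unadjusted p of at most 0.05 in edgeR. Pde4c, the remaining PDE4 gene, showed the widest spread of any of them, at 379, 323 and 15 CPM in β1-WT-GFP and 167, 0.592 and 112 CPM in β1-K794Q-GFP cultures. β1-WT-GFP culture C and β1-K794Q-GFP culture B were the low ones, and its log2 fold change was -1.35 (SE 1.64). Pde7b, a relative of Pde7a, was also lowest in these cultures of each group, at 37.7, 43.0 and 8.77 CPM in β1-WT-GFP and 15.5, 3.36 and 34.3 CPM in β1-K794Q-GFP cultures, with a log2 fold change of -0.75 (SE 0.89). Pde10a, which hydrolyses both nucleotides and is best known from the striatum, had a log2 fold change of -0.62 (SE 0.44). The other 8 were too low to test and 4 of them, Pde6b, Pde6c, Pde9a and Pde11a, had 0 counts everywhere.

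Divided by the length of the annotated exons, levels can be set side by side between genes, though only roughly. The length joins the exons of all annotated transcripts of a gene, and which of them the cells use was not examined. On this scale of CPM per kb, the 21 family genes summed to 179.7, 186 and 101 in the β1-WT-GFP cultures and to 156, 209 and 110.4 in β1-K794Q-GFP cultures, so the groups overlapped. In β1-WT-GFP cells the order of the means was Pde2a (61.7), Pde4c (42.7), Pde8a (17.4) and Pde4d (17.2), neighbours that all overlapped. Below Pde4d, and without overlap with it, came Pde7a (5.08), Pde4b (4.0), Pde10a (3.02), Pde7b (2.4) and Pde4a (2.09), again neighbours that all overlapped. In β1-K794Q-GFP cells Pde2a (84.6) stood clear of Pde8a (29.0), which overlapped with Pde4c (16.7), as did Pde4c with Pde4d (10.7). Pde8b (1.41) and Pde3b (1.09) came last among the tested genes there and overlapped with Pde7b (1.42). In the sum they took a small part: Pde8b 2.05%, 0.112% and 0.715% and Pde3b 1.21%, 0.181% and 0.915% across the β1-K794Q-GFP cultures.

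The share of the 8 cAMP-specific genes in that sum was 63.7%, 59.1% and 47.1% in β1-WT-GFP and 46.9%, 40.6% and 49.0% in β1-K794Q-GFP cultures. β1-WT-GFP culture C lay inside the β1-K794Q-GFP range, and the shares of genes for both nucleotides mirrored this, at 36.3%, 40.9% and 52.8% against 53.1%, 59.4% and 51.0%. The PDE4 genes together made up 48.6%, 43.4% and 29.4% in β1-WT-GFP and 27.6%, 15.2% and 28.9% in β1-K794Q-GFP cultures, much of it from Pde4c, whose own share ran from 37.7% in β1-WT-GFP culture A to 2.65% in C and 0.0506% in β1-K794Q-GFP culture B. The genes specific for cGMP stayed at or below 0.0581% in all 6 cultures.

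**Figure D3:**
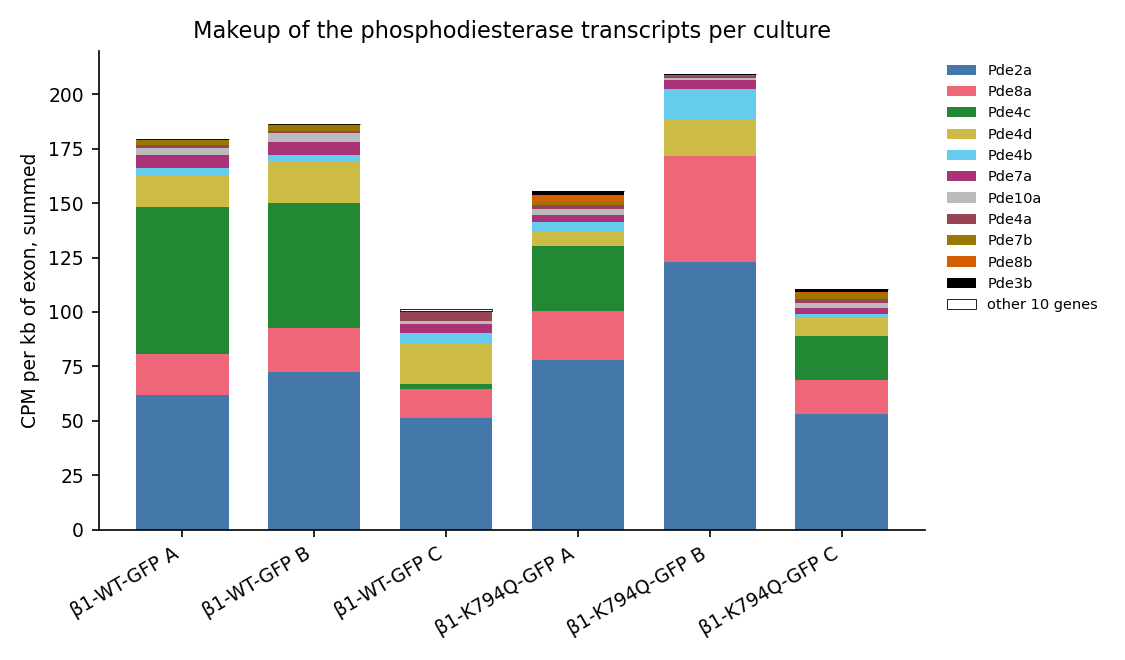
Phosphodiesterase transcripts in each culture as stacked CPM per kb of annotated exon, from 0. Pde2a is the largest segment in 5 cultures and Pde4c in β1-WT-GFP culture A; Pde4c is nearly missing in β1-WT-GFP culture C and β1-K794Q-GFP culture B, and Pde8b and Pde3b appear as thin segments in β1-K794Q-GFP cultures.

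Of the 11483 other genes tested with a mean of at least 1 CPM, those most like Pde8b were ranked by Pearson's r of log2(CPM + 1) over the 6 cultures. The cultures belong to the same 2 groups, and within a culture all genes share its depth and handling. First came A730090N16Rik (r = 0.999), at 0.262, 0.30 and 0.279 CPM in β1-WT-GFP and 4.33, 1.09 and 1.98 CPM in β1-K794Q-GFP cultures. Its β1-WT-GFP values stood at or near the level of 3 counts in these libraries (0.262, 0.30 and 0.209 CPM), so its fold rests on few counts. The next were Tmem131 (0.988), Eed (0.981), a subunit of Polycomb repressive complex PRC2, Myl6b (0.981), a myosin light chain, and Cd63 (0.977), a tetraspanin of late endosomes. Pde3b ranked 13 (0.972). The folds behind these values were unequal, with log2 fold changes of 3.09 for A730090N16Rik and 0.34 for Tmem131. With 6 cultures and so many genes, such values describe the pattern only.

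**Figure D4:**
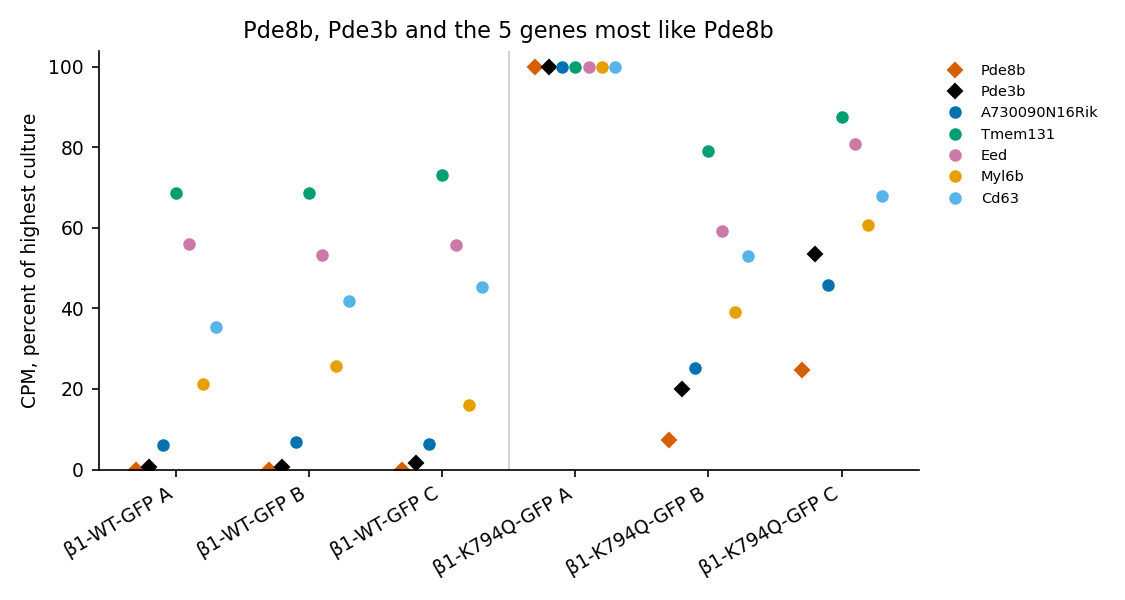
CPM in each culture as a percent of the gene's highest culture, for Pde8b, Pde3b and the 5 genes most like Pde8b. Each gene is highest in β1-K794Q-GFP culture A; Pde8b and Pde3b (diamonds) are at or near 0 in β1-WT-GFP cultures, whereas Tmem131 and Eed stay well above 0 in every culture.

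Of the annotated genes with a symbol in the count table, the nearest 4 on each side of Pde8b were taken. They were Ap3b1, Tbca, Otp and Wdr41 on the left and Zbed3, Snora47, Aggf1 and Crhbp on the right, none overlapping it. Of these 8, 5 were tested, with log2 fold changes from -0.54 to 0.33, and 0 were past both thresholds in edgeR or in DESeq2, with 1, Zbed3, at an unadjusted p of at most 0.05. Wdr41, whose end lies 1.14 kb from that of Pde8b, stood at 27.8, 21.6 and 28.3 CPM in β1-WT-GFP and 39.1, 21.8 and 36.5 CPM in β1-K794Q-GFP cultures, a log2 fold change of 0.33. Around Pde3b, looked at after its values were seen, 3 of 8 neighbours were tested, with log2 fold changes from -0.15 to -0.06 and 0 past both thresholds in edgeR or in DESeq2 and 0 at an unadjusted p of at most 0.05.

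Around the phosphodiesterases, 88 genes of cyclic nucleotide signalling in 7 lists were examined, from the cyclases that make cAMP and cGMP to the effectors, anchors, receptors, CREB targets and exporters. Of the 57 that passed the filter, 3 were past both thresholds, 2 higher and 1 lower, which is 5.26% beside 5.19% of all genes tested. At a Benjamini-Hochberg adjusted p of at most 0.05 stood 0 in edgeR's quasi-likelihood test, where the smallest was 0.265, beside 0.181% of all genes. In DESeq2 1, Abcc5, stood there, beside 4.15% of all genes with an adjusted p, which Fos and Rgs2 lacked. An unadjusted p of at most 0.05 in edgeR was reached by 6 of the 57, beside 10.2% of all genes. By list, 1 of 4 adenylyl cyclases tested was past both thresholds, 0 of 4 genes of cGMP synthesis, 0 of 9 effectors, 0 of 13 anchors and partners, 0 of 11 receptors and G proteins, 1 of 14 CREB factors and targets and 1 of 2 exporters. The median log2 fold change of the 57 was 0.06.

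Adcy9, an adenylyl cyclase that makes cAMP, rose from 12.9, 14.4 and 6.41 CPM in β1-WT-GFP to 25.1, 45.1 and 14.6 CPM in β1-K794Q-GFP cultures by the thresholds of the series. β1-K794Q-GFP culture C and β1-WT-GFP culture B nearly met. Its log2 fold change was 1.33 (SE 0.50, adjusted p = 0.428, edgeR), 0.83 to 1.64 with each culture left out, and past both thresholds in 2 of these 6 fits, the one that drops β1-WT-GFP culture B and the one that drops β1-K794Q-GFP culture C. Nr4a2, an orphan nuclear receptor gene induced through CREB, stood at 2.89, 4.4 and 5.36 CPM in β1-WT-GFP and 12.8, 12 and 5.25 CPM in β1-K794Q-GFP cultures, and the groups overlapped through culture C of each. Its log2 fold change was 1.25 (SE 0.44, adjusted p = 0.402, edgeR), 1.03 to 1.56 with each culture left out, and past both thresholds in 2 of the 6 fits, those without culture C of either group. Abcc5, an exporter of cyclic nucleotides, stood at 583, 623 and 408 CPM in β1-WT-GFP and 208, 224 and 342 CPM in β1-K794Q-GFP cultures, every β1-K794Q-GFP culture below every β1-WT-GFP culture. Its log2 fold change was -1.06 (SE 0.29, adjusted p = 0.265, edgeR) and past both thresholds in 3 of the 6 fits, those without β1-WT-GFP culture A or culture C of either group. Without β1-WT-GFP culture C and β1-K794Q-GFP culture B together, Abcc5 (-1.12) and Nr4a2 (1.32) were past both thresholds and Adcy9 (0.55) was not.

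Other partners of the phosphodiesterases were counted in both groups without passing the thresholds. Rapgef4, which encodes EPAC2, and Ramp3, a partner of the adrenomedullin receptor, are named here after their values were seen. Rapgef4 fell just short, at 92.4, 86.4 and 56.7 CPM in β1-WT-GFP and 174, 197 and 98.2 CPM in β1-K794Q-GFP cultures, a fold of 1.99 (adjusted p = 0.355, edgeR), and it passed without β1-WT-GFP culture A, without β1-WT-GFP culture B or when β1-K794Q-GFP culture C was left out. Ramp3 stood at 15.5, 17.2 and 3.97 CPM in β1-WT-GFP and 12.9, 239.7 and 24.3 CPM in β1-K794Q-GFP cultures, with culture B of β1-K794Q-GFP far above the rest and overlapping groups. Its log2 fold change was 2.92 (SE 1.22, adjusted p = 0.495, edgeR), short of the p threshold. It passed both thresholds in DESeq2, in the likelihood ratio test, with no filter and with at least 10 counts in every culture. It also passed without β1-K794Q-GFP culture A and without β1-K794Q-GFP culture C. Gucy1a1 and Gucy1b1, the subunits of the usual nitric oxide receptor, had 0 counts in all 6 cultures.

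**Figure D5:**
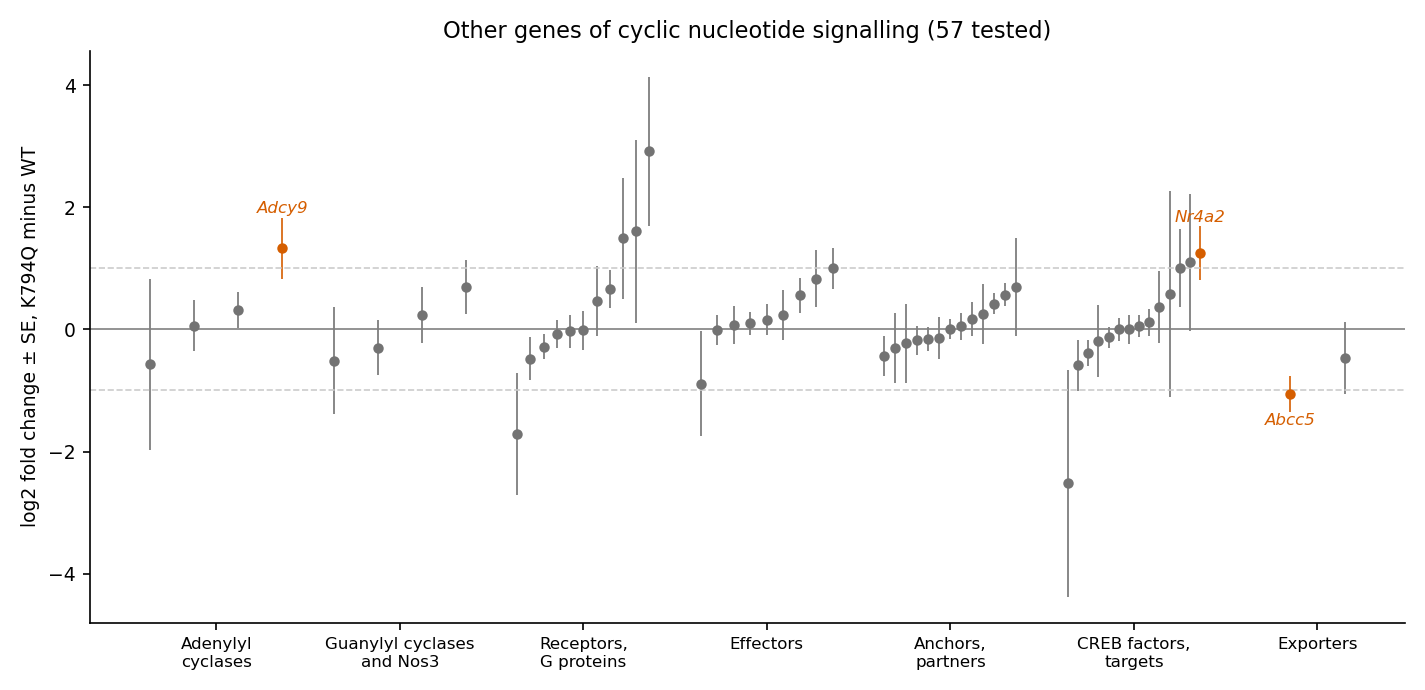
Log2 fold change ± SE (β1-K794Q-GFP minus β1-WT-GFP) of the 57 tested genes of cyclic nucleotide signalling, sorted within each of the 7 lists. Orange marks Adcy9, Nr4a2 and Abcc5, past both thresholds, and dashed lines a 2-fold change.

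The cultures ranged from 9589826 to 15287191 counts, a depth at which 3 counts correspond to 0.209 to 0.30 CPM. Likeness within a group varied: between 65 (A and B) and 2701 (A and C) genes were at least 2-fold apart within β1-WT-GFP, and between 903 (A and C) and 2562 (B and C) within β1-K794Q-GFP, so that β1-WT-GFP culture C and β1-K794Q-GFP culture B stood apart. Without both, Pde3b had a log2 fold change of 6.99 and Pde8b kept its split of 0 counts against 195 and 54, whereas Pde8a and Pde2a moved to -0.00 and -0.02, Pde4a to 0.71 and Pde4d to -1.12. All 10 endothelial markers were counted in every culture, summing to 7768 to 8881 CPM in β1-WT-GFP and 6653 to 12496 CPM in β1-K794Q-GFP cultures. The 6 mural markers summed to 0.350 to 3.83 and 0.197 to 0.578 CPM, and the 5 epithelial ones to 0 to 0.279 and 0 to 0.592 CPM. The 6 steroidogenic ones, of a cell type known for Pde8b, summed to 1.60 to 2.54 and 1.88 to 2.84 CPM. Most of this was Star, at 1.60 to 2.27 and 1.38 to 2.41 CPM. The 5 blood cell markers summed to 37.6 to 88.6 and 31.0 to 103 CPM, nearly all of it Cd68, without which the sums were at most 0.418 and 0.0963 CPM.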

How the data were processed

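Total RNA of 6 cultures was sequenced after Ribo-Zero plus depletion of ribosomal RNA. The authors deposited raw read counts for each mouse gene symbol, without normalization. The submitters' processing notes name bcl2fastq 2.20.0, STAR 2.7.4a, HTSeq 0.9.1, edgeR 3.38.4 and the build mm10; the annotation and the strand setting are not given in the sources used here. Without a known strand setting, reads of overlapping genes cannot be told apart. No annotated gene with a symbol in the count table overlaps Pde8b or Pde3b. Annotated genes without a symbol there were not searched.

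Groups came from the transfection label. Tests were run with edgeR 4.0.16 under R 4.3.3, using filterByExpr, TMM and the two-sided quasi-likelihood F-test on all 6 cultures, which left 11608 genes and a common dispersion of 0.186. A gene was past both thresholds at a 2-fold difference or more with an unadjusted p no higher than 0.05, and adjusted p is Benjamini-Hochberg over all genes tested. CPM is the count scaled to 1000000 counts of the TMM-adjusted library. SE is the log2 fold change divided by the square root of F. The main fit was first run on simulated counts with known fold changes, given only to well-counted genes and with a single dispersion. The simulation did not cover genes without counts in a whole group, such as Pde8b, or cultures that stand apart. P-values measure the spread between cultures of sorted populations.

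The members and lists were chosen with earlier results of these data known, so no p is printed for a member and counts of members past a threshold are a description. Named are all members, the other phosphodiesterases that passed the filter, pathway genes past both thresholds, the 5 genes most like Pde8b, and the 4 nearest genes on each side of it; exceptions are marked. Positions and exon lengths came from GENCODE M21, promoter windows from RefSeq GRCm38.p6. Alternatives were no filter, at least 10 counts in every culture, RLE, DESeq2 1.42.0, the likelihood ratio test, a block for the culture letter, and each culture left out. A fit without β1-WT-GFP culture C and β1-K794Q-GFP culture B was added after seeing the data.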

Additional observations from a re-analysis of the deposited data

How the results depend on the processing

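Pde8b and Pde3b were the phosphodiesterase genes of the list past both thresholds under no filter on low counts, RLE, DESeq2, the likelihood ratio test and the replicate block, and leaving out a culture gave 2 to 3 of the list. A minimum of 10 counts in every culture gave 0, because it removes both genes before the test. Without β1-WT-GFP culture C and β1-K794Q-GFP culture B together, 1 of 3 other phosphodiesterases tested, Pde4c, was past both thresholds, as were 9 of 58 pathway genes. In that fit 14.2% of all genes were past both. With all cultures it was 3 of 57 pathway genes, beside 5.19% of all genes. The pathway count was 7 of 81 with no filter, beside 5.73% of all genes, and 2 to 6 when each culture was left out. It was 2 of 58 without β1-K794Q-GFP culture A, beside 4.53% of all genes. It was 6 of 59 without β1-WT-GFP culture C and 6 of 59 without β1-K794Q-GFP culture C, beside 8.38% and 5.52%. The cause was not tested. Over all genes, 603 were past both thresholds, and 916 with no filter, 992 without β1-WT-GFP culture C, 942 without β1-K794Q-GFP culture B, then 1661 without both.

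Same-lettered cultures were not paired in the main fit. The correlations of their deviations from the group means were 0.12, 0.0558 and 0.109 for A, B and C. Between cultures of different letters they were mostly negative and ran from -0.171 to 0.126. These values are too few and too small to settle whether the letters pair. With the letter as a replicate block, 2 of the list, 0 other phosphodiesterases, 3 pathway genes (Abcc5, Adcy9 and Crem) and 571 of all genes (4.92%) were past both thresholds. Nr4a2 (log2 fold change 1.19) was no longer among them.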
